A study of Homo sapiens with 24 samples.

Results

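Interferon-stimulated genes are the genes that cells switch on when interferons bind their receptors. The 39 genes described here were taken as a list of symbols and matched to the Ensembl identifiers of the 4 tables, which together hold 60623 genes. The list holds 5 genes of sensing and transcription, 4 IFIT genes, 4 OAS genes, 5 GTPases, 4 genes of the ISG15 system, 3 genes of the PARP and DTX3L group, the SAMD9 pair, 5 other restriction factors, and 7 IFI genes and their like. Expression was measured by RNA sequencing of cultured human lung cancer cells, in 24 libraries that fall into 8 groups of 3.

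Interferons signal through cell-surface receptors to kinases of the JAK family, among them JAK1 and TYK2. Type I interferon acts through transcription factors that include STAT2 and IRF9 and bind the interferon-stimulated response element (ISRE), while type II interferon acts through the gamma-activated site (GAS). The induced proteins block virus replication, sense foreign nucleic acid and, as with USP18, damp the pathway itself. Many tumour cells keep a low level of these genes running with no added interferon.

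Overexpressing (OE) A549 cells carry the genotype label HEPACAM2 overexpressed and were set against A549 cells labelled WT, and OE H1299 cells, of the line NCI-H1299, were set against their own WT controls in the same way. Both come from non-small cell lung tumours. In the small cell lung cancer lines DMS454 and H1694 (NCI-H1694), libraries titled CRISPR with the genotype label HEPACAM2 knockdown were set against libraries titled control and labelled WT. The study's title names cell-matrix interactions as its subject, and interferon genes are no stated question of it. The labels state that the 3 replicates of a group were independent. The vector, the guides, any selection or cloning of the cells, and the time after treatment are stated in no source used here.

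HEPACAM2, the targeted gene, encodes an immunoglobulin-like cell adhesion protein and lies on the minus strand of chromosome 7 (93188586 to 93226524 in GRCh38, ENSG00000188175). It stood at 6074, 5864 and 6084 normalized counts in the OE libraries of A549, against 1.1, 0 and 0 in the controls. In H1299 it stood at 27257, 24999.9 and 23710.2 in OE libraries, against 3.49, 3.07 and 2.08 in controls. In DMS454 the libraries labelled CRISPR held more HEPACAM2 mRNA, not less, at 11460.0, 11256 and 10844, against 6430.1, 6543 and 6677 in those labelled control. The same held in H1694, at 10124, 10545 and 10399 in libraries labelled CRISPR, against 3433, 3551 and 3688 in libraries labelled control. The log2 fold change was 0.77 (SE 0.04) in DMS454 and 1.54 (SE 0.04) in H1694. The mRNA of these lines thus goes against the knockdown label. The libraries titled control carry G in their column names, and those titled CRISPR carry pL. What these letters stand for is stated in no source used here, and an exchange of the arms was not tested. Each direction below is labelled CRISPR minus labelled control and follows higher HEPACAM2 mRNA; it would turn if the arms were exchanged.

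Total reads per library ran from 12704476 to 31770858, and a gene was tested where the mean of either group reached 10 normalized counts. Markers of the labelled cell types were present, but not all of them in H1299, and some were shared between the kinds of line. DMS454 held 23315 to 24583 INSM1 in libraries labelled CRISPR and 24724 to 25303 in those labelled control, and H1694 held 20861 to 21487 and 21630.4 to 21790.4 NEUROD1, both neuroendocrine transcription factors. The marker shown thus differs between these lines. Of 6 neuroendocrine markers, all were tested in DMS454 and in H1694, 3 in A549 and 2 in H1299. Their log2 fold changes went both ways, from -0.704 to 0.706 in DMS454 and from -0.259 to 0.186 in H1694. A549 held 71454 to 74064 KRT8, an epithelial keratin, in OE libraries and 83043 to 88358 in controls, and H1299 held 4752 to 5939 and 5513 to 6996. Of 6 epithelial markers, all were tested in A549. In H1299, 5 of the 6 had a row, and 2 were below 10 normalized counts in both groups. DMS454 also held KRT8, at 21219 to 22267 in libraries labelled CRISPR and 20189 to 20587 in those labelled control, while in H1694 it was near 0, at 1.76 to 4.22 and 4.85 to 7.11. UCHL1, a neuronal hydrolase counted among the neuroendocrine markers, was also high in A549, at 9580 to 10404 in OE libraries and 10626 to 11471 in controls, and in H1299, at 10536 to 10970 and 8764 to 9169. Of 8 leukocyte markers, 3 had a row in A549 and in H1299, and those rows summed to 74.1 to 89.3 and 100.1 to 121 in A549 and to 41.1 to 57.99 and 70.7 to 86.9 in H1299 (OE, then controls). In DMS454 and H1694, where all 8 had a row, they summed to 43.3 to 60.7 and 32.6 to 51.7 and to 8.80 to 11.01 and 7.11 to 14.6 (labelled CRISPR, then labelled control), with 3 and 4 of them at 0 in every library. Some libraries stood apart from their own group in a chi-square comparison of reads: both libraries numbered 1 in H1299, and libraries 3 of DMS454 and 1 of H1694 labelled CRISPR. Pairs that held one of these differed by a chi-square of 14.4 to 26.9 per gene, and no pair in the series was below 1.72.

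Promoter sequences from RefSeq (GRCh38.p14), running from 250 bases before to 50 after a start site, were matched by symbol for 31 of the 39 genes. Those not matched were IRF7, IFIT2, OAS2, OASL, MX2, GBP2, USP18 and TRIM22. The ISRE core was searched as GAAANNGAAA on both strands, with overlapping matches counted, and stood in a window of 22 of the 31 genes (71.0%), against 4.38% of all 27305 genes with a promoter in the table. The GAS motif, TTCNNNGAA, reads alike on both strands and stood in 10 of the 31 (32.3%), against 9.38% of all genes, and 6 genes held both. Such matches describe the letters of the window and are not shown to be bound. The bases upstream of the start are given for 9 genes whose levels the results turn on, in the gene's own direction, with capitals for the ISRE core.
IFIT1 (chr10:89392497-89392622, plus strand): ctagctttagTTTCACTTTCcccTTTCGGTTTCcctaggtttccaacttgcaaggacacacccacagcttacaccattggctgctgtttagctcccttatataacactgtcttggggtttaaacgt
IFI6 (chr1:27672193-27672358, minus strand): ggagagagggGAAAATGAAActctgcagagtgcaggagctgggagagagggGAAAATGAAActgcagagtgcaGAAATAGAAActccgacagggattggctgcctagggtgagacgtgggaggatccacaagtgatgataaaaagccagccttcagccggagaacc
ISG15 (chr1:1013374-1013496, plus strand): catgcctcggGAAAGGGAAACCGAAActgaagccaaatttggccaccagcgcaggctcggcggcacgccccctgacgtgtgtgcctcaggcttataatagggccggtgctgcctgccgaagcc
IFI27 (chr14:94110616-94110735, plus strand): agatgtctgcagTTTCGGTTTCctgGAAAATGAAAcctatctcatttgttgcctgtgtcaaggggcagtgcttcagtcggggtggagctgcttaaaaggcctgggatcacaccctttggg
OAS3 (chr12:112938321-112938473, plus strand): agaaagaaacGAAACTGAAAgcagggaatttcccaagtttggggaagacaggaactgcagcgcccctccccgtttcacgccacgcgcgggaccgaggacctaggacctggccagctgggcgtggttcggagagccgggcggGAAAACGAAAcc
GBP1 (chr1:89065209-89065345, minus strand): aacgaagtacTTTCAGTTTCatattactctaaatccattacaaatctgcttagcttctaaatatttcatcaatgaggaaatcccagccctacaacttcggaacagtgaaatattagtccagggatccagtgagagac
SAMD9 (chr7:93117980-93118125, minus strand): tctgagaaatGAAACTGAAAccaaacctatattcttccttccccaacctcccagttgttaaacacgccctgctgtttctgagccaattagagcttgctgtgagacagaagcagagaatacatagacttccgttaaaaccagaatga
SAMD9L (chr7:93148386-93148505, minus strand): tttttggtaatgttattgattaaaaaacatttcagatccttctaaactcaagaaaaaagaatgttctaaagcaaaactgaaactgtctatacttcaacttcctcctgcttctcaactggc
OAS1 (chr12:112906842-112906961, plus strand): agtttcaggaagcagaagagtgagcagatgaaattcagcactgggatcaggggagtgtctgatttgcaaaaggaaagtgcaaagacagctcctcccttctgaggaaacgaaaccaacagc
IFI6 held 3 cores, the first of them beginning 156 bases before the start. IFIT1 held a pair of cores that began 116 and 103 bases upstream, and ISG15 held an overlapping pair from 113 bases upstream. OAS1 and SAMD9L held no exact match in the whole window, while OAS3 and SAMD9, which lie beside them on their chromosomes, held 2 and 1. In the stretch shown, OAS1 has a pair of GAAA with 1 base between them, which the search did not count. OAS1 held a GAS match, 168 bases upstream and outside the stretch shown. The 5 genes with neither motif were CMPK2, HERC6, SAMD9L, STAT2 and XAF1.

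Control cells of all 4 lines expressed part of the interferon-stimulated set, and each line left another part at or near 0. In the plot of control levels, the mean of the control libraries was below 10 normalized counts for 7 of the 35 genes with a row in A549, for 6 of 31 in H1299, for 8 of 39 in DMS454 and for 17 of 39 in H1694. The tables of A549 and H1299 leave out genes whose mean is below 1.13 and 1.47, and MX2, RSAD2, XAF1 and EPSTI1 had no row in either. OAS1, CMPK2, TRIM22 and IFI44L had none in H1299 alone. H1694 held not a single read of IFIH1, OASL, HERC6, TRIM22, IFI44L and XAF1 in its 6 libraries of 148533875 reads. For each of these genes, a count of 0 allows up to 3 reads among those 148533875, by counting error only.

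**Figure D1:**
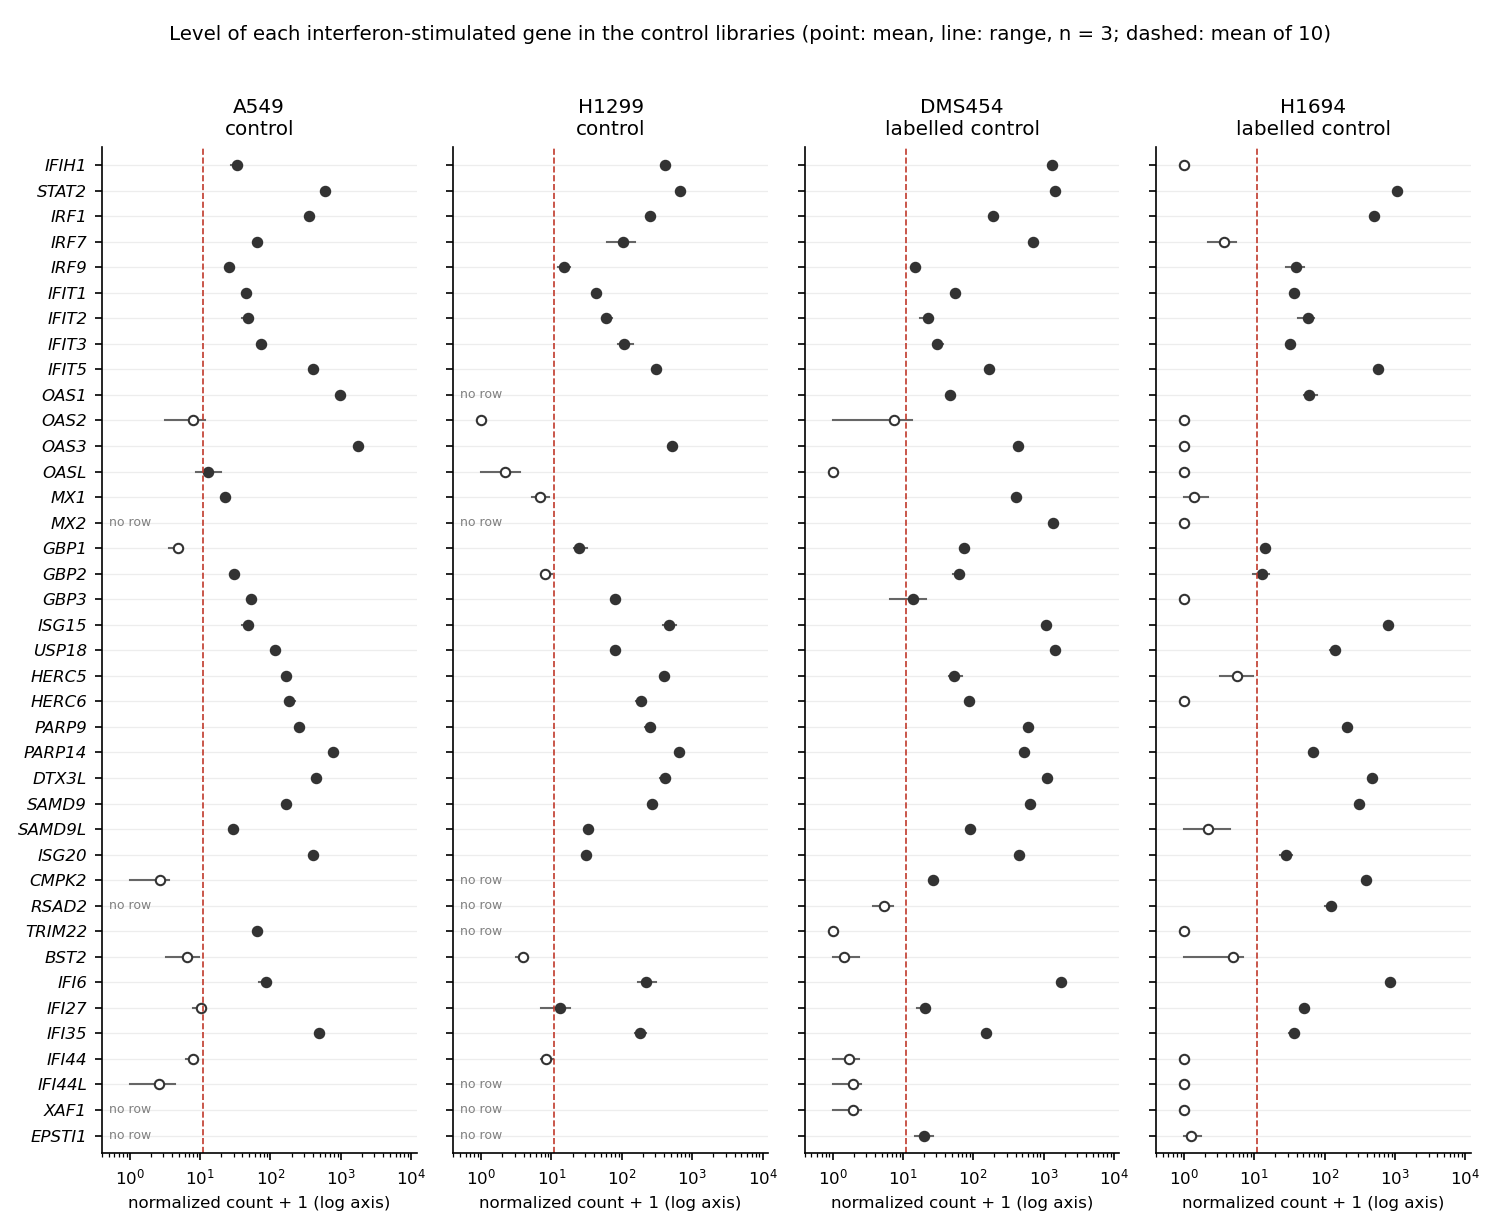
Mean normalized count plus 1 (log axis) of the 39 interferon-stimulated genes in the 3 control libraries of each line, with the range of the libraries as a line and a dashed line at a mean of 10. Filled points have a mean of at least 10, and 17 genes lie below it in H1694 against 8 in DMS454.

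The 2 small cell lines differed in which antiviral genes had reads. DMS454 held IFIH1, the RNA sensor MDA5, at 1186, 1129 and 1376 in libraries labelled CRISPR and 1358, 1292 and 1324 in libraries labelled control, while H1694 held none. MX2, a GTPase that blocks retroviruses, stood at 1213, 1214 and 1239.9 and at 1295, 1391 and 1436 in the same groups of DMS454, and at 0, 0.88 and 0 and at 0 in each control of H1694. OAS3, which makes the messenger that activates RNase L, reached 1.76 at most in H1694. CMPK2, a nucleotide kinase, went the other way, with 297, 292 and 298 in H1694 libraries labelled CRISPR and 412, 421 and 346 in those labelled control, against 15 to 27 over all DMS454 libraries. RSAD2, the antiviral enzyme viperin and the neighbour of CMPK2, stood at 102 to 146 in all H1694 libraries and below 7 in all DMS454 libraries. These levels come from tables that were normalized separately, so they are set side by side without a test.

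No gene of the list was called in all 4 lines. A call is an adjusted p below 0.05 from limma, over all genes tested in the line. Over all genes tested, 44.4% were called in A549, 28.8% in H1299, 18.9% in DMS454 and 17.6% in H1694. Of the 39 genes, 5 were called in 3 lines, 7 in 2, 17 in 1 and 10 in none. With all libraries kept, 3 genes (BST2, IFI44L and XAF1) were too low to pass the filter in any line. For 9 genes a call of higher in one line stood beside a call of lower in another. The plot of changes shows the direction by line, with most calls lower in A549, all higher in H1299, and all lower in H1694.

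**Figure D2:**
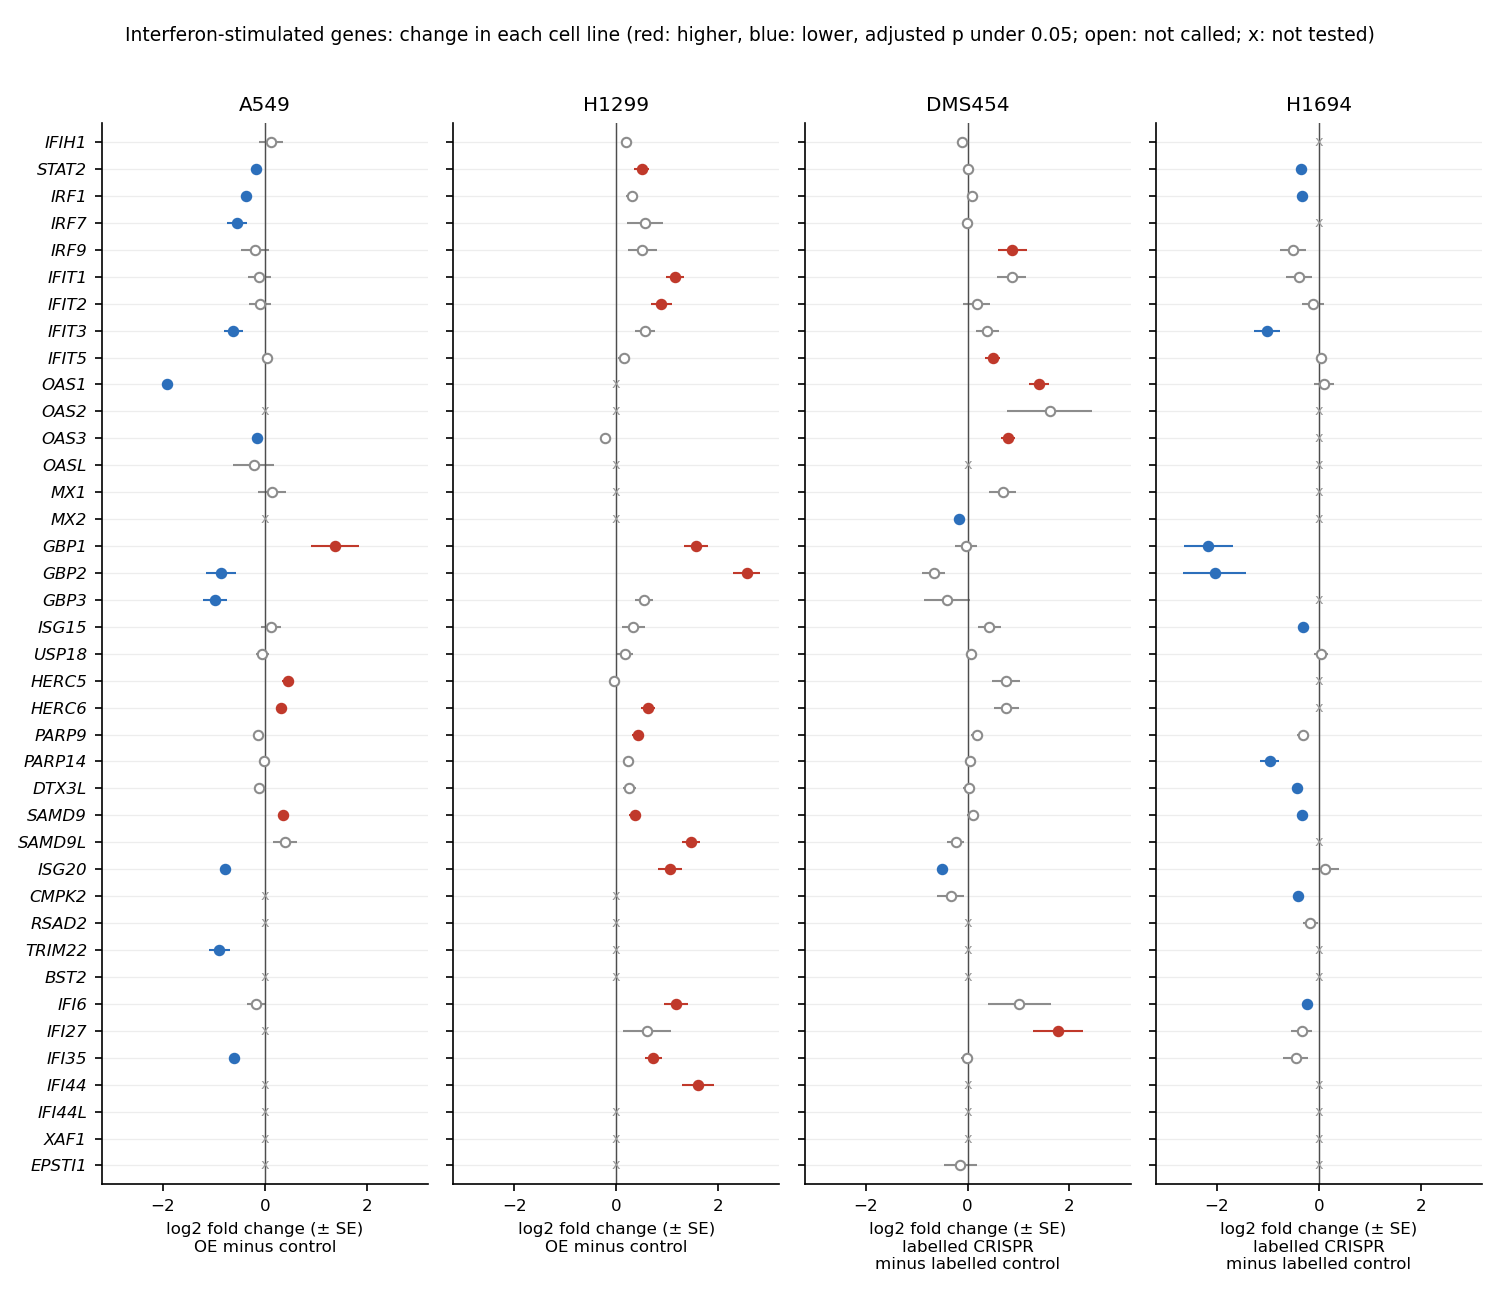
Log2 fold change with its SE of each interferon-stimulated gene, OE minus control in A549 and H1299 and labelled CRISPR minus labelled control in DMS454 and H1694, with called genes filled. H1299 has 13 genes called higher and 0 lower, and H1694 has 0 higher and 11 lower.

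In A549, OE cells held less of 11 interferon-stimulated genes and more of 4. Among those lower were OAS1, the exonuclease ISG20 and IFI35, and among those higher was the ISG15 ligase HERC5. Of the 39 genes, 35 had a row and 29 were tested, 2 of them (OASL and GBP1) through a mean of 10 in 1 group only. GBP1 passed through the OE group, where it is high, so that its call supports nothing about the list. Over all 16707 genes tested in A549, 21.9% were called lower and 22.5% higher. The median log2 fold change was -0.14 over the 29 genes and -0.002 over all genes. The OE libraries lay all below the controls in 12 members and all above them in 3, beside 25.7% and 26.1% of all genes. Without control library 3 the count of higher members was 2, beside 20.3% of all genes. In bulk RNA a lower value may mean fewer cells that express a gene or less RNA per cell, and these cannot be told apart.

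OAS1 had the largest called fall of the list in A549. This synthetase makes 2′-5′ oligoadenylate, which activates RNase L, when it binds double-stranded RNA (ENSG00000089127, chromosome 12, 112906777 to 112933222, plus strand). It stood at 257, 277 and 239.7 normalized counts in OE libraries, against 1033, 1017 and 869 in controls. The groups lay far apart, with a ratio of OE to control means of 0.265. The log2 fold change was -1.91 (SE 0.07, adjusted p = 2.7e-26). OAS3, at its side on chromosome 12, stood at 1629, 1495 and 1616 in OE libraries, against 1739, 1802 and 1696 in controls. It was called lower by a far smaller amount (-0.14, SE 0.04, adjusted p = 0.0081), and OAS2 was below 10 in both groups.

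The transcription factors fell modestly in A549. IRF7, the factor that amplifies interferon production, stood at 49.7, 34.6 and 47.7 in OE libraries, against 71.5, 62.1 and 59.6 in controls (-0.55, SE 0.19, adjusted p = 0.017). IRF1 fell by 0.38 on the log2 scale (SE 0.09) and STAT2 fell by 0.18 (SE 0.06), while IRF9 and IFIH1 did not pass the test. The calls of IRF7 and STAT2 were each lost in 3 of 13 alternatives, DESeq2 among them (highest adjusted p = 0.13 and 0.090). All OE libraries lay below all controls for IRF7, IRF1 and STAT2, which 25.7% of all genes tested in A549 also did. Among the IFIT genes, whose proteins bind viral RNA ends, IFIT3 stood at 56.8, 45.9 and 39.1 in OE libraries, against 69.3, 73.6 and 73.5 in controls (-0.61, SE 0.18, adjusted p = 0.0052). IFIT1, IFIT2 and IFIT5 gave values between -0.10 and 0.04 that did not pass.

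GTPases moved in both directions in A549. GBP3, a guanylate-binding protein, stood at 17.8, 26.6 and 36.7 in OE libraries, against 57.2, 46.0 and 53.0 in controls (-0.97, SE 0.24, adjusted p = 0.00066). GBP2 was also lower (-0.86, SE 0.30), at 9.47, 22.5 and 18.4 in OE libraries, against 29.7, 33.4 and 25.8 in controls. GBP1 was higher, but at the edge of the filter, with 7.10, 12.1 and 17.1 in OE libraries, against 4.40, 4.60 and 2.65 in controls (1.37, SE 0.47). GBP1 and GBP2 each lost their call when single libraries were left out. These 3 genes belong to a family with closely related sequences, so reads that fit more than 1 of them may have been split.

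Among the other restriction factors, ISG20, an exonuclease that degrades viral RNA, stood at 243, 216 and 235 in OE libraries, against 369.5, 409 and 421 in controls (-0.79, SE 0.09, adjusted p = 7.6e-11). TRIM22, an antiviral member of the tripartite motif family, stood at 34.3, 27.4 and 41.6 in OE libraries, against 75.9, 57.5 and 59.6 in controls (-0.89, SE 0.21, adjusted p = 0.00036). IFI35 stood at 331, 337 and 307 in OE libraries, against 464, 531 and 487 in controls (-0.60, SE 0.07, adjusted p = 4.3e-09). In all 3 every OE library lay below every control, as in 25.7% of all genes tested in A549. HERC5, the ligase that joins ISG15 to new proteins, went up instead, with 214, 224 and 234 in OE libraries, against 166, 158 and 168 in controls (0.45, SE 0.10, adjusted p = 0.00030). HERC6 and SAMD9 were also called higher, at 0.33 (SE 0.11) and 0.37 (SE 0.11), and that of HERC6 was lost in 3 of 13 alternatives. ISG15 itself, USP18, PARP9, PARP14 and DTX3L did not pass, with values between -0.14 and 0.12. Nor did IFI6 (-0.17), MX1 (0.14) and OASL (-0.22).

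In H1299 the same overexpression went with higher levels: 13 interferon-stimulated genes were called higher and 0 lower. Among those above the filter in both groups, the guanylate-binding protein GBP1, SAMD9L, IFI6 and IFIT1 had the largest changes. Of the 39 genes, 31 had a row and 27 were tested, 2 of them (GBP2 and IFI44) through the OE group only, where they are high, so that their calls support nothing about the list. Over all 16192 genes tested in H1299, 13.5% were called higher and 15.3% lower. The median log2 fold change was 0.54 over the 27 genes and 0.002 over all genes. The count of lower members was 0 as well by edgeR, by DESeq2 and at an unadjusted limma p under 0.05. The OE libraries lay all above the controls in 18 members and all below them in 1, beside 20.5% and 22.8% of all genes. Without OE library 3 the count of higher members was 8, and 7.71% of all genes were then called higher.

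GBP1 stood at 79.4, 73.0 and 58.9 in OE libraries, against 20.1, 30.7 and 19.8 in controls (1.56, SE 0.24, adjusted p = 0.0020). GBP2 stood at 50.8, 46.5 and 43.0 in OE libraries, against 6.11, 9.20 and 6.24 in controls (2.56, SE 0.27). In both genes every OE library lay above every control, as in 20.5% of all genes tested in H1299. GBP2 passed the filter in H1299 through the OE group alone. In A549 it was called lower, and the difference between the lines was -3.42 on the log2 scale (A549 minus H1299, SE 0.43, adjusted p = 2.4e-05). SAMD9L, an antiviral factor and growth suppressor, stood at 90.1, 87.6 and 87.9 in OE libraries, against 28.8, 29.6 and 36.4 in controls (1.46, SE 0.18, adjusted p = 0.00070). The ratio of means was 2.80, and the OE libraries lay within 87.6 and 90.1.

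**Figure D3:**
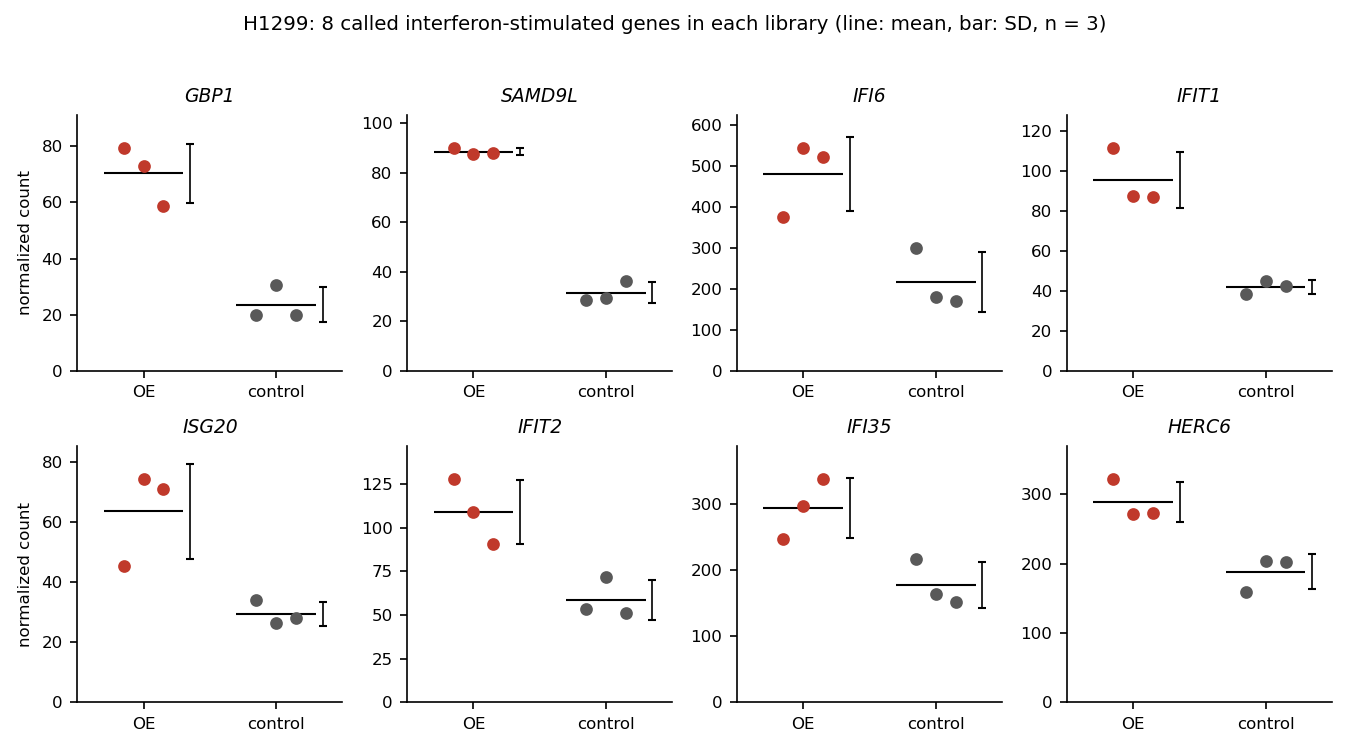
Normalized counts in each H1299 library of the 8 interferon-stimulated genes with the largest called changes and a mean of at least 50, with group means and SD (n = 3). The OE libraries lie above all controls in each panel, by the widest ratio in GBP1 (2.997) and SAMD9L (2.80). Such a separation held for 20.5% of all genes tested in H1299.

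IFI6, a mitochondrial and reticulum protein that protects cells from death, stood at 376, 544 and 521 in OE libraries, against 300.2, 181 and 169.5 in controls (1.17, SE 0.23, adjusted p = 0.0079). IFIT1, which binds RNA that lacks the cap methylation of the host, stood at 112, 87.6 and 87.0 in OE libraries, against 38.4, 45.0 and 42.6 in controls (1.16, SE 0.18, adjusted p = 0.0020). IFIT2 stood at 128, 109 and 90.5 in OE libraries, against 53.2, 71.6 and 51.0 in controls (0.89, SE 0.20, adjusted p = 0.011). Thus 2 of the 4 IFIT genes rose in H1299, while IFIT3 (0.56, adjusted p = 0.066) and IFIT5 (0.16) did not pass. ISG20, lower in A549, was higher here, with 45.5, 74.3 and 71.2 in OE libraries, against 34, 26.6 and 28.1 in controls (1.06, SE 0.24, adjusted p = 0.012). IFI35, also lower in A549, stood at 248, 297 and 337 in OE libraries, against 217, 165 and 152 in controls (0.73, SE 0.17, adjusted p = 0.012). HERC6 stood at 321, 271 and 273 in OE libraries, against 159, 203 and 202 in controls (0.62, SE 0.14, adjusted p = 0.010).

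Further calls in H1299 were IFI44 (1.61), STAT2 (0.50), PARP9 (0.43) and SAMD9 (0.36), and those of STAT2, PARP9 and SAMD9 were lost in 5, 7 and 8 of 14 alternatives. The calls of IFI35, ISG20 and HERC6 were lost in 4, 3 and 1 of them. Several members that were not called varied widely within a group. ISG15 stood at 415, 738 and 673 in OE libraries, against 582, 389.5 and 450.3 in controls, and IRF7 at 97.2, 168 and 171, against 154, 61.3 and 91.5. In both genes OE library 1 was the lowest of its group and control library 1 the highest of its own. Without both libraries numbered 1, ISG15 had a log2 fold change of 0.75 (SE 0.09) and IRF7 one of 1.17 (SE 0.18). In that setting 18 members were called higher and 0 lower, beside 27.0% and 27.9% of all genes. Of the 18, BST2, GBP2 and IFI44 passed the filter through the OE libraries only, where they are high. Their calls support nothing about the list, and BST2 was below the filter with all libraries kept. The 9 called genes with values per library above were called in that setting too, from 0.42 in HERC6 to 2.41 in GBP2. OAS3 was the one tested member whose OE libraries all lay below all controls, at -0.21 (SE 0.10, adjusted p = 0.12).

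The difference between the overexpressing lines was tested directly for the 25 members measured in both. The change differed in 14 of them, beside 41.2% of all 14578 genes tested in both lines. Of the 14, 13 had the lower value in A549 and 1 the higher, as 18.5% and 22.7% of all genes did. The 13 include GBP2, which passed the filter in H1299 through the OE group alone. The median difference, A549 minus H1299, was -0.68 over the 25 members and 0.02 over all genes. ISG20 differed by -1.85 (SE 0.24, adjusted p = 4.2e-05), IFI35 by -1.33 (SE 0.19, adjusted p = 8.2e-05), GBP3 by -1.52 (SE 0.33) and IFI6 by -1.35 (SE 0.34). HERC5 alone differed the other way, at 0.48 (SE 0.13). GBP1, called higher in both lines, and SAMD9, at 0.37 and 0.36, gave differences of -0.19 (SE 0.47) and 0.005 (SE 0.17) that did not pass. GBP1 passed the filter in A549 through the OE group alone, where it is high. Its values thus support no likeness between the lines.

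In DMS454, 5 interferon-stimulated genes were higher and 2 were lower in the libraries labelled CRISPR, but the group was split. OAS1, OAS3, IFIT5, IRF9 and IFI27 were higher, and ISG20 and MX2 lower. All 39 genes had a row and 32 were tested, 2 of them (OAS2 and GBP3) through 1 group only. Over all 18868 genes tested in DMS454, 9.15% were called higher and 9.72% lower. The median log2 fold change was 0.098 over the 32 genes and 0 over all genes. The libraries labelled CRISPR lay all above those labelled control in 7 members and all below them in 3, beside 18.3% and 18.4% of all genes.

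Library 3 labelled CRISPR held many of these genes at the level of the controls, while libraries 1 and 2 held more. IFI6 stood at 5385, 5833 and 1507 in libraries labelled CRISPR, against 1965, 1579 and 1831 in libraries labelled control. ISG15, the ubiquitin-like modifier, stood at 1706, 1709 and 1022, against 1131, 1046 and 1040.0, and the GTPase MX1 at 798, 789.5 and 423, against 439.9, 390.2 and 371. HERC6 stood at 179, 192 and 92.5 in libraries labelled CRISPR, against 80.1, 94.1 and 86.2 in libraries labelled control, and IFIT1 at 136, 123 and 57.1, against 55.7, 49.4 and 55.6. In each of these 5 genes the third library labelled CRISPR lay nearer to the controls than to its own group, and none of the 5 was called. Relative to the mean of the controls, 12 and 11 of the 32 members were at least 1.5-fold higher in libraries 1 and 2, and 2 were in library 3. The same measure held for 6%, 6.48% and 4.62% of all genes tested.

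**Figure D4:**
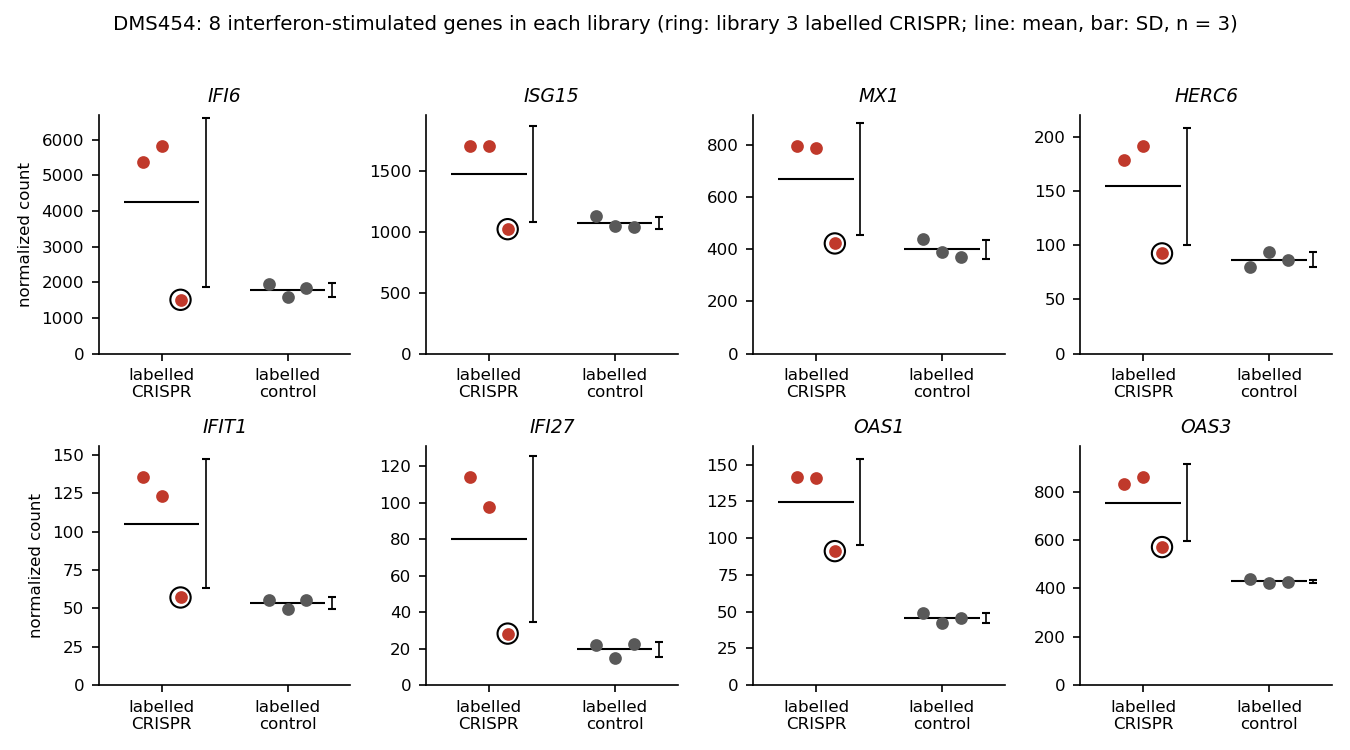
Normalized counts of 8 interferon-stimulated genes in each DMS454 library, labelled CRISPR on the left and labelled control on the right, with group means and SD (n = 3) and a ring around library 3 labelled CRISPR. In IFI6 that library has 1507 against 5385 and 5833 in its own group, and in OAS1 it has 91.1, still above all controls.

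Without library 3 labelled CRISPR, 14 members were called higher and 4 lower, beside 16.7% and 18.2% of all genes. IFI6 then had a log2 fold change of 1.65 (SE 0.11), MX1 of 0.99 (SE 0.08), ISG15 of 0.67 (SE 0.05), HERC6 of 1.09 (SE 0.14) and IFIT1 of 1.26 (SE 0.18). Leaving out any other library of DMS454 left 2 higher, namely OAS1 and OAS3, beside 5% to 5.56% of all genes. The call of IRF9 was lost in 8 of 12 alternatives. That library held 5.42% mitochondrial reads, against 3.99% and 3.13% in libraries 1 and 2 of its group and 4.55% to 5.02% in the controls, and its part in the result was not tested beyond these values.

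OAS1 and OAS3 were higher in all 3 libraries labelled CRISPR of DMS454. OAS1 stood at 141, 141 and 91.1, against 48.9, 42.4 and 45.9 in libraries labelled control (1.40, SE 0.19, adjusted p = 0.00037). OAS3 stood at 832, 860.5 and 571, against 437, 422 and 428 (0.79, SE 0.14, adjusted p = 0.0049). Both kept their call in all 13 alternatives. OAS1 was thus lower in A549 with OE and higher in DMS454 libraries labelled CRISPR. IFI27, a mitochondrial protein among the most strongly induced genes of the class, stood at 114, 97.7 and 28.2 in libraries labelled CRISPR, against 21.7, 14.7 and 22.2 in libraries labelled control (1.77, SE 0.50, adjusted p = 0.043). IFIT5 stood at 271, 248 and 186, against 169.7, 149.6 and 177 (0.49, SE 0.14, adjusted p = 0.029). Both lost their call when any library other than library 3 labelled CRISPR was left out. IFI27 also lost its call with no filter, with a pseudocount of 5 and by edgeR, in 8 of 13 alternatives altogether.

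ISG20 was lower in DMS454, at 293, 312 and 351 in libraries labelled CRISPR, against 416, 473 and 462 in libraries labelled control (-0.50, SE 0.09, adjusted p = 0.0029). Here library 3 lay with its group. MX2 fell by 0.17 on the log2 scale (SE 0.06, adjusted p = 0.049), a call that was lost in 8 of 13 alternatives, so that the count of lower members was 1 without libraries 1 or 2 labelled CRISPR and without libraries 2 or 3 labelled control. STAT2, IRF1, IRF7, USP18, PARP14, DTX3L and IFI35 gave values between -0.02 and 0.09 and did not pass. GBP2 stood at 33.3, 34.4 and 49.9 in libraries labelled CRISPR, against 50.2, 73.2 and 64.0 in libraries labelled control, and did not pass either (-0.67, SE 0.22, adjusted p = 0.053).

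In H1694, 11 interferon-stimulated genes were lower and 0 higher in the libraries labelled CRISPR. The PARP14 and DTX3L genes, STAT2, IRF1, ISG15, CMPK2, SAMD9 and IFI6 were among them, PARP14 by -0.97 on the log2 scale and the others named here by -0.42 to -0.23. All 39 genes had a row, and 22 were tested. Of these, 2 (GBP1 and GBP2) passed through the libraries labelled control only, where they are high, so that their calls support nothing about the list. Over all 17780 genes tested in H1694, 8.90% were called lower and 8.73% higher. The median log2 fold change was -0.335 over the 22 genes and -0.001 over all genes. The libraries labelled CRISPR lay all below those labelled control in 14 members and all above them in 0, beside 17.6% and 17.4% of all genes. The count of higher members was 0 as well by edgeR, by DESeq2 and at an unadjusted limma p under 0.05.

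PARP14, a mono-ADP-ribosyltransferase linked to interferon responses, stood at 33.7, 30.8 and 35.5 in libraries labelled CRISPR, against 74.6, 61.6 and 63.1 in libraries labelled control (-0.97, SE 0.19, adjusted p = 0.0022). DTX3L, a ubiquitin ligase that works with PARP9, stood at 349, 354 and 330.2, against 482, 477 and 430.5 (-0.42, SE 0.08, adjusted p = 0.0012). PARP9 itself lay lower in all 3 libraries labelled CRISPR, at 187, 160.2 and 150.4, against 196, 210.2 and 212, and did not pass (-0.32, adjusted p = 0.067). These genes share a stretch of chromosome 3, and PARP9 and DTX3L overlap at their starts on opposite strands (122527924 to 122564577 and 122564238 to 122575203). No source used here gives the strand setting of the counting, so reads of the overlap cannot be told apart.

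STAT2, a transcription factor of the type I response, stood at 802, 916 and 816 in libraries labelled CRISPR, against 1069, 1006 and 1182 in libraries labelled control (-0.36, SE 0.07, adjusted p = 0.0019). IRF1, an activator that interferon gamma induces, stood at 416, 397 and 391, against 528, 491 and 491 (-0.33, SE 0.07, adjusted p = 0.0046). ISG15 stood at 668, 619.8 and 653, against 764, 831 and 805 (-0.31, SE 0.06, adjusted p = 0.0024). The 2 groups of each gene were apart, with every library labelled CRISPR below every control, as in 17.6% of all genes tested in H1694. CMPK2, with the levels given above, had a log2 fold change of -0.40 (SE 0.09, adjusted p = 0.0051). SAMD9 stood at 256, 240.4 and 234, against 312, 328 and 280.1 (-0.33, SE 0.09, adjusted p = 0.021). IFI6 stood at 775, 691 and 745, against 868, 858 and 862 (-0.23, SE 0.06, adjusted p = 0.014).

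IRF9 (-0.51), IFI35 (-0.46), IFIT1 (-0.40) and IFI27 (-0.34) lay below 0 and did not pass. Larger folds in H1694 stood at low levels. GBP1 had 2.53, 0.88 and 3.67 in libraries labelled CRISPR, against 14.2, 12 and 13.3 in libraries labelled control (-2.17, SE 0.48, adjusted p = 0.0051). GBP2 had 3.37, 5.28 and 0, against 11.8, 15 and 8.49 (-2.05, SE 0.63, adjusted p = 0.035). IFIT3 had 16, 15.8 and 13.4, against 29.6, 32.3 and 32.7 (-1.02, SE 0.26, adjusted p = 0.012). IFIT5, OAS1, USP18, ISG20, RSAD2 and IFIT2 gave values between -0.17 and 0.13 that did not pass. Without library 1 labelled CRISPR, which stood apart from its group, 12 members were called lower, beside 12.6% of all genes, and without control library 2 the count was 7, beside 5.05%. Among the members with values here, the call was lost in 5 of 12 alternatives for GBP2, in 2 of 12 for IFIT3, in 4 of 13 for SAMD9 and in 3 of 13 for IFI6.

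Between the small cell lines the change differed in 12 of the 21 members tested in both, beside 20.2% of all 15460 genes. All 12 had the higher value in DMS454 and 0 the lower, as 10.4% and 9.81% of all genes did. IFI27 differed by 2.11 (SE 0.55), OAS1 by 1.30 (SE 0.29, adjusted p = 0.0049), PARP14 by 1.01 (SE 0.18, adjusted p = 0.00074) and ISG15 by 0.73 (SE 0.23, adjusted p = 0.044). STAT2 differed by 0.365 (SE 0.09), with 0.004 in DMS454 and -0.36 in H1694. GBP1, which passed the filter in H1694 through the libraries labelled control alone, differed by 2.14 (SE 0.45). The count was 7 without library 2 labelled CRISPR or library 1 labelled control of DMS454, and likewise without library 3 labelled CRISPR or library 1 labelled control of H1694, beside 16% to 17.5% of all genes.

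SAMD9L and SAMD9 lie beside HEPACAM2 on chromosome 7, with gaps of 40.2 and 70.6 kb between the gene bodies. VPS50, the gene next to HEPACAM2 at 5.8 kb, was called in no line, with values from -0.13 to 0.14. SAMD9L, called in H1299 (1.46), was not called in A549 (0.40, adjusted p = 0.18) or DMS454 (-0.23, adjusted p = 0.37), and had at most 3.55 normalized counts in H1694. SAMD9 was called higher in both OE lines and lower in H1694. Its call was lost in 8 of 14 alternatives in H1299 and in 4 of 13 in H1694. CDK6, a cell cycle kinase gene 352 kb away, stood at 2212, 2389 and 2371 in A549 OE libraries, against 1419.9, 1426 and 1333 in controls (0.74, SE 0.04), and at 2121, 2269.6 and 1927 in DMS454 libraries labelled CRISPR, against 1225, 1292 and 1321 in libraries labelled control (0.72, SE 0.06). It was lower in H1694 (-0.28, SE 0.08), a call lost in 4 of 13 alternatives, and did not pass in H1299 (-0.02, SE 0.07). FAM133B was called in A549 alone (0.19, lost in 5 of 13 alternatives), and CALCR passed the filter in DMS454 alone and was not called (-0.62, SE 0.44).

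**Figure D5:**
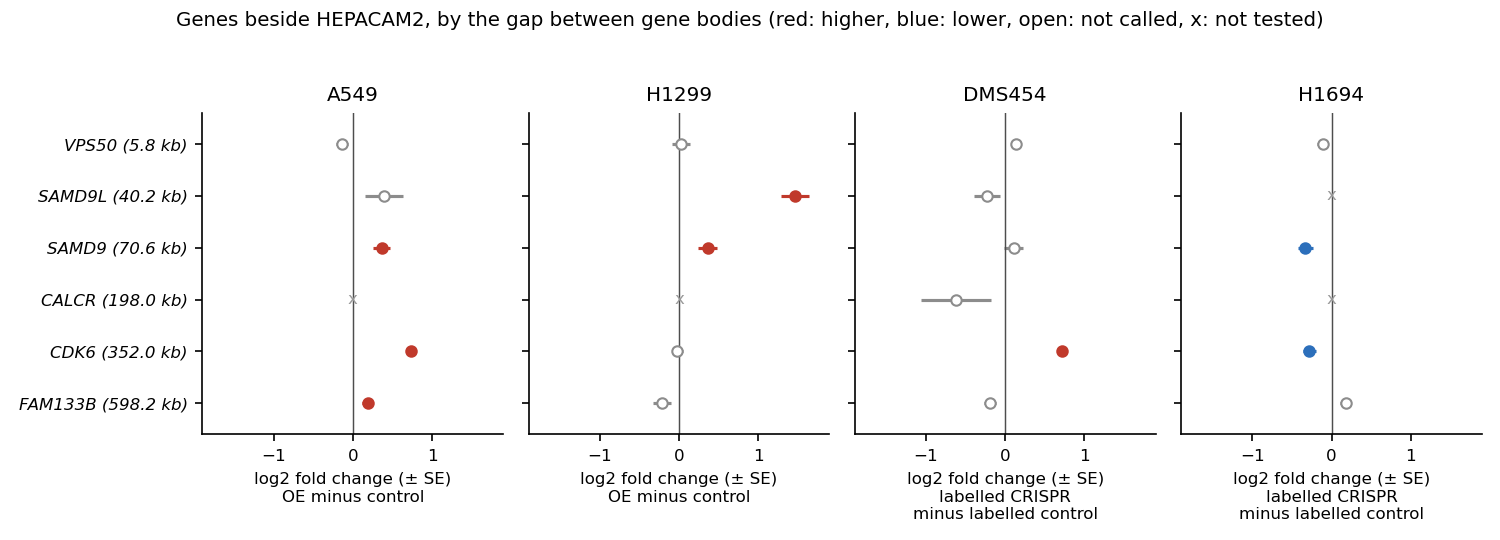
Log2 fold change with SE of 6 genes near HEPACAM2 in each line, ordered by the gap in kb between gene bodies, OE minus control or labelled CRISPR minus labelled control. VPS50, the nearest at 5.8 kb, is open in all 4 panels, while SAMD9L stands at 1.46 in H1299.

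No interferon ligand gene exceeded 34.8 normalized counts in any library. Of 21 interferon ligand genes, only IFNE, an epithelial type I interferon, had a row in A549 and in H1299. It stood at 16.6, 13.7 and 6.12 in A549 OE libraries, against 12.1, 10.3 and 11.9 in controls, and at 34.8, 11.9 and 15.8 in H1299 OE libraries, against 4.36, 9.20 and 19.8 in controls, and was tested and not called in either. The 21 genes together held 27 reads in DMS454 libraries labelled CRISPR and 15 in those labelled control, and no read at all in H1694. Receptors and kinases were expressed in all lines. Of 9 such genes tested, 1 was higher and 4 lower in A549, 2 higher and 0 lower in H1299, 0 higher and 2 lower in DMS454, and 1 higher and 1 lower in H1694. In H1299, 1 of the 9 passed the filter through the OE group only, where it is high. A call of higher in that gene supports nothing about the list. Over all genes tested, the shares called were 22.5% higher and 21.9% lower in A549, 13.5% and 15.3% in H1299, 9.15% and 9.72% in DMS454, and 8.73% and 8.90% in H1694, and the counts of this list and of those that follow are to be read against them.

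JAK1, the kinase shared by the receptors, stood at 5391, 5479 and 5737 in A549 OE libraries, against 3615, 3644 and 3493 in controls (0.63, SE 0.04, adjusted p = 5.5e-19). It stood at 4735, 4565 and 4409.5 in H1694 libraries labelled CRISPR, against 3443, 3417 and 3259.8 in libraries labelled control (0.44, SE 0.04, adjusted p = 3.7e-06). In both lines this rise stood beside more members lower than higher. IFNAR1, a chain of the type I receptor, was lower in A549 (-0.19, SE 0.06), DMS454 (-0.24, SE 0.05) and H1694 (-0.38, SE 0.05). The type II receptor chains IFNGR1 (-0.34) and IFNGR2 (-0.44) were lower in A549, and IFNGR2 was lower in DMS454 (-0.25) and higher in H1299 (0.23), calls that were lost in 3 of 13 and 7 of 14 alternatives. That of IFNAR1 in A549 was lost in 2 of 13.

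Among 15 genes of nucleic acid sensing, the adaptor STING, listed as TMEM173, moved in opposite directions in the overexpressing lines. It stood at 21.3, 23.4 and 15.9 in A549 OE libraries, against 73.7, 77.0 and 63.6 in controls (-1.79, SE 0.22, adjusted p = 3.6e-09). In H1299 it stood at 591, 573 and 553 in OE libraries, against 263, 252 and 225 in controls (1.21, SE 0.10, adjusted p = 0.00013). CGAS, the DNA sensor upstream of STING, did the reverse, at 0.41 (SE 0.09) in A549 and -0.54 (SE 0.09) in H1299. The list as a whole held 7 higher and 4 lower of 13 tested in A549, 3 and 2 of 12 in H1299, 1 and 0 of 9 in DMS454, and 0 and 2 of 10 in H1694, beside the same shares of all genes (22.5% and 21.9% in A549, 13.5% and 15.3% in H1299, 9.15% and 9.72% in DMS454, 8.73% and 8.90% in H1694). Of the 4 lower in A549, DHX58 passed the filter through the controls only, where it is high. Its call supports nothing about the list. RIG-I, listed as DDX58, was higher in A549 (0.62, SE 0.15), and TLR3 was higher in H1299 (1.09, SE 0.21). STING was lower in H1694 (-0.59, SE 0.17), a call lost in 5 of 13 alternatives. MAVS, the adaptor of the RNA sensors, was higher in H1299 (0.36) and DMS454 (0.21) and lower in H1694 (-0.24).

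Of 8 feedback inhibitors, 2 were higher and 3 lower in A549, 0 and 1 in H1299, 1 and 2 in DMS454, and 1 and 1 in H1694. In A549 the 2 higher are near the 22.5% of all genes called higher there. SOCS1, which blocks JAK kinases, stood at 98.7, 95.1 and 110.1 in H1694 libraries labelled CRISPR, against 42.6, 54.0 and 58.2 in libraries labelled control (0.97, SE 0.17, adjusted p = 0.00092). The phosphatase PTPN6 was lower in A549 (-0.56, SE 0.06) and DMS454 (-0.23, SE 0.06), and PTPN2 was lower in H1299 (-0.48, SE 0.09). In DMS454 the lowest log2 fold change of these inhibitors was -1.50, that of SOCS3.

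A further 40 genes, outside the list of 39, were listed as induced by interferon. Whether each of them is induced in these cells was not tested. They gave 4 higher and 13 lower of 33 tested in A549 and 12 higher and 3 lower of 31 in H1299. In DMS454 they gave 8 higher and 1 lower of 30, and in H1694 0 higher and 5 lower of 24. In A549, 2 of those tested passed the filter through the controls only, where they are high. IFITM1, called lower, was 1 of them. In H1694, 2 passed through the libraries labelled control only. A call of lower in such a gene supports nothing about the list. The shares of all genes called higher and lower were 22.5% and 21.9% in A549, 13.5% and 15.3% in H1299, 9.15% and 9.72% in DMS454, and 8.73% and 8.90% in H1694. IFITM2 and IFITM3, which keep viruses from fusing with endosomes, were lower in A549. IFITM2 stood at 381, 436 and 407 in OE libraries, against 1068, 970.5 and 993 in controls (-1.31, SE 0.06). IFITM3 stood at 56.8, 46.7 and 59.9 in OE libraries, against 151, 146 and 147 in controls (-1.43, SE 0.15), and reads of these near-identical genes may have been split between them. LGALS3BP, a secreted glycoprotein, stood at 1199, 1266 and 1194 in A549 OE libraries, against 2179, 2345 and 2154 in controls (-0.87, SE 0.04). In H1299 it stood at 671, 792 and 781 in OE libraries, against 289, 227 and 185 in controls (1.69, SE 0.16). APOL6, an apolipoprotein L gene, was lower in A549 (-1.06, SE 0.09) and H1694 (-0.42, SE 0.11) and higher in H1299 (0.68, SE 0.14) and DMS454 (0.77, SE 0.16), and the call in H1694 was lost in 3 of 13 alternatives. PML, of the nuclear bodies, was higher in H1299 (0.87, SE 0.12), where BATF2 (-1.29, SE 0.28) and ISG20L2 (-0.87, SE 0.10) were lower.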

How the data were processed

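RNA was sequenced from strand-marked libraries, per the labels' protocols, in 24 libraries of 4 lines, and the series design states independent biological replicates. Per the submitters' processing notes, the authors used CASAVA, FastQC, Trim Galore, STAR and DESeq2 on hg38; no source used here gives their versions, the counter or its strand setting. The authors deposited 1 table per line of normalized counts, a signal of reads per gene divided by a size factor, with their mean. The deposited tables also hold the authors' log2 fold changes, p-values and a test score, per the file headers, which were not used for any result; those of DMS454 and H1694 have the labelled control as numerator. Low values showed steps of 1 read, and 100% of values came out whole within 0.01 after scaling, which gave total reads per library. Because the tables were normalized separately, tests stayed within a line or compared changes between lines.

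Gene names and positions are those of GENCODE 29, which matched 96.5% to 98.3% of identifiers. Genes with a mean of at least 10 in 1 group were tested on log2(normalized count + 1) with limma 3.58.1 (trend, robust; R 4.3.3), adjusted by Benjamini-Hochberg over all genes tested, with a threshold of 0.05. Differences between lines were interaction contrasts over 12 libraries. The fold change on this scale understates the change of low genes. Precision is that of 3 libraries per group. The scripts were tested on simulated data. Alternatives were TMM scaling, edgeR 4.0.16 and DESeq2 1.42.0 on the recovered reads, other filters, a pseudocount of 5, a replicate block and leaving out libraries.

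The members and lists were chosen with earlier results of these data known. Values per library are given for up to 8 called members per line, up to 6 members per difference between lines and up to 4 called genes per further list and line, all with a mean of at least 50, for the neighbours of HEPACAM2, and for members needed to account for the list. Further members and genes of the lists, and the settings without libraries that stood apart, were named with their values seen. Some genes were left out of the context and marker lists and are not reported here.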

Additional observations from a re-analysis of the deposited data

Results flagged for a closer look

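For 26 changes of interferon-stimulated genes, the test of the difference between lines passed the threshold, and these are given as values. Between the overexpressing lines (A549 minus H1299, log2 scale), the change of STAT2 differed by -0.68, IRF1 by -0.68, IFIT1 by -1.26, IFIT2 by -0.98 and IFIT3 by -1.18. GBP2 differed by -3.42, GBP3 by -1.52, PARP9 by -0.57, DTX3L by -0.38 and SAMD9L by -1.07. ISG20 differed by -1.85, IFI6 by -1.35 and IFI35 by -1.33, and HERC5 by 0.48. The difference in DTX3L was lost in 13 of 18 alternatives and that in IFIT2 in 2 of 17. GBP2 passed the filter in H1299 through the OE group alone, where it is high, so its difference supports nothing about the list.

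Between the small cell lines (DMS454 minus H1694), the change of STAT2 differed by 0.365, IRF1 by 0.41, IRF9 by 1.39, IFIT1 by 1.27, IFIT3 by 1.41 and OAS1 by 1.30. GBP1 differed by 2.14, ISG15 by 0.73, PARP9 by 0.50, PARP14 by 1.01, DTX3L by 0.46 and IFI27 by 2.11. Of these, IFIT1 was lost in 10 of 16 alternatives, and ISG15, PARP9, DTX3L and IRF1 in 12, 12, 7 and 5 of 17. GBP1 passed the filter in H1694 through the libraries labelled control alone, where it is high. Its difference supports nothing about the list.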

How the results depend on the processing

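No called change or difference named here turned its direction under the alternatives run, but values of members that were not called did, as IFI27 in H1299, at 0.61, and at -0.18 without both libraries numbered 1. The count of H1299 members called higher was 13, beside 13.5% of all genes, and with a replicate block it was 7, beside 4.98%. The replicate numbers did not pair the samples (correlations of deviations from -0.538 to 0.123), and in the other lines the block gave 4 higher and 11 lower in A549, 7 and 2 in DMS454, and 0 and 11 in H1694. The count of DMS454 members called lower was 2, and 1 under TMM scaling and under DESeq2. Leaving out 1 library at a time gave 2 to 4 higher and 9 to 11 lower in A549, 8 to 13 higher in H1299, 2 to 14 higher and 1 to 4 lower in DMS454, and 7 to 12 lower in H1694. It gave 13 to 14 members that differed between A549 and H1299 and 7 to 15 between DMS454 and H1694. The cause of each of these shifts was not tested. Members below a mean of 10 were not tested at this depth. On the recovered reads edgeR called 7523 genes in A549, 4666 in H1299, 3513 in DMS454 and 3345 in H1694, with 4 higher and 11 lower members, 14 and 0, 4 and 2, and 0 and 11 in that order. By DESeq2 the members called higher and lower were 3 and 8 in A549, 13 and 0 in H1299, 7 and 1 in DMS454, and 0 and 9 in H1694, and of the 7 in DMS454, 4 were also called by limma. DESeq2 called 6045, 4403, 2865 and 2243 genes in these lines.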
